A study of Mus musculus with 8 samples.

Results

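Mitochondria translate the mRNAs of their own genome with tRNAs that are charged by dedicated aminoacyl-tRNA synthetases, which are encoded in the nucleus, translated in the cytosol and imported. Each enzyme joins a given amino acid to its cognate mitochondrial tRNA, so that mitochondrial translation needs the whole set at once. Lars2 encodes the mitochondrial leucyl-tRNA synthetase, which charges the leucine tRNAs mt-Tl1 and mt-Tl2.

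Lars2 and 8 further mitochondrial synthetase genes, Iars2, Nars2, Sars2, Vars2, Yars2, Ears2, Aars2 and Fars2, were examined among the 41214 genes counted in total bone marrow of 8 C57Bl6 mice. Lars2 was chosen by its measured level, which differed widely between these same libraries, and its values are therefore given as a description without a test. The 8 others were listed by their function and were tested, to ask whether the swings of Lars2 between libraries were shared by its functional family. All 9 genes passed the filter on low counts in the 8 mice.

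The marrow came from 4 groups of 2 mice, and every mouse carried a changed allele of Gfi1, a transcriptional repressor that controls myeloid differentiation. In Gfi1 KD mice a human GFI1 cDNA is expressed at a low level from the Gfi1 locus, because of a neo cassette placed in antisense, and in Gfi1 KO mice the gene is knocked out. The young KD mice (39 and 42 days) and the young KO mice (48 and 44 days) were labelled as free of AML, as were the old KO mice (158 and 101 days), while the sick KD mice (187 and 78 days) carried the label AML. No wild-type marrow was among these 8 samples. By this design, disease and genotype cannot be told apart in old KO against sick KD marrow, and age and disease cannot be told apart in sick against young KD marrow.

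Total counts on genes ranged from 26642067 to 42679114 per library. Counts on the mouse Gfi1 gene separated the labels, but were higher in the KO than in the KD libraries. Its TMM-normalized CPM, a count scaled to a common library size, were 6.20 and 7.01 in young KD, 5.43 and 7.08 in sick KD, 14.2 and 14.4 in young KO, and 13.2 and 29.9 in old KO marrow. The KD allele carries a human GFI1 cDNA, whose reads the row of the mouse gene need not count. The gene therefore does not check the labels, and KD and KO below mean the libraries labelled so. The sick KD libraries stood apart, with 42.0% and 38.8% of uniquely aligned reads outside genes against 26.9% to 33.8% elsewhere, and with 1.69 and 1.87 alignments that were not unique for each count on a gene against 1.06 to 1.14. Granulocyte and monocyte markers summed to 18692 to 28725 CPM in the 8 libraries (13 of 13 in the files, none at 0).

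Lars2 lies on the plus strand of chromosome 9 (chr9:123366927-123462666, GRCm38, ENSMUSG00000035202). The last of the 21 exons of its transcript Lars2-201 holds the end of the coding sequence and the 3′ UTR, which begins at position 123461679. Within that UTR, 72 bases (chr9:123462048-123462119) were shared with a transcript of Gm15564, an antisense RNA gene on chromosome 16, with 1 mismatch and in the same orientation. The difference was A53T, with positions counted from 1 at the 5′ end of the shared stretch and the Lars2 base given first. The windows of 30 bases around it, positions 38 to 67 of the stretch, are shown because Gm15564 is also among the gene rows that varied with Lars2, with the differing base in capitals (GENCODE M21 transcripts, GRCm38, the Lars2 window at chr9:123462085-123462114 on the plus strand):
Lars2: ggaacgtgagctgggAttagaccgtcgtga
Gm15564: ggaacgtgagctgggTttagaccgtcgtga
A search of 141767 annotated mouse transcripts found 1 more gene with a stretch of at least 50 bases at 95% identity or more to Lars2-201, AA474408, over 50 bases with 2 mismatches. In the rest of the family such stretches were found only in 5 genes, and each was identical to the opposite strand of an overlapping gene: Iars2 with Rab3gap2 over 2034 bases, Nars2 with C230038L03Rik, Vars2 with Gm20483, Ears2 with Ubfd1 and Fars2 with Lyrm4. The libraries were stranded, but the strand setting of the counting is not given in the sources used here. How reads from these overlaps were assigned to genes is therefore not known.

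Lars2 differed 22.5-fold between the lowest and the highest of the 8 libraries. Its level was 8.45 and 9.72 CPM in young KD, 58.5 and 48.9 CPM in young KO, 22.2 and 32.7 CPM in sick KD, and 22.7 and 190.2 CPM in old KO marrow. The young KD libraries were the lowest, both young KO libraries were above both sick KD libraries, and the old KO libraries lay at the level of the lower sick KD library and at the highest level of all. These levels rest on 339, 323, 2547, 1605, 557, 929, 645 and 7400 counts in the same order. The group means were 9.08 ± 0.898 CPM in young KD, 27.5 ± 7.42 CPM in sick KD, 53.7 ± 6.82 CPM in young KO and 106 ± 118 CPM in old KO marrow (SD, n = 2 each). In that order each of the first 3 groups was separated from its neighbour, whereas the range of old KO overlapped that of sick KD and covered that of young KO.

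**Figure D1:**
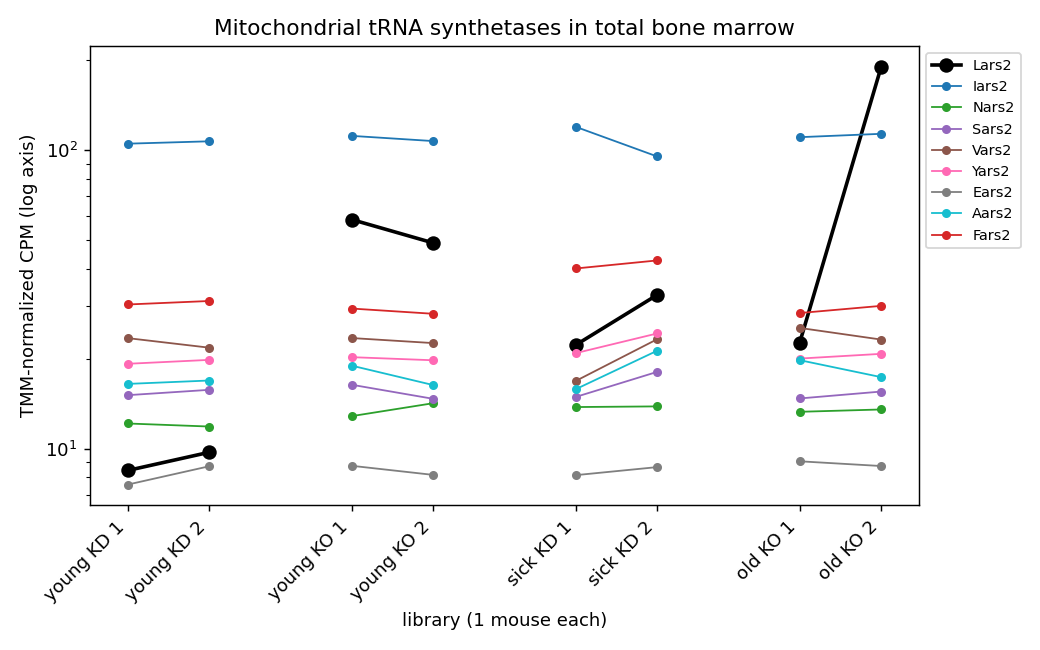
TMM-normalized CPM (log axis) of the 9 synthetase genes in each of the 8 libraries, with a line joining the 2 mice of a group. Lars2 (black) runs from 8.45 to 190.2 CPM, while each of the other genes stays within a ratio of 1.51 between its highest and lowest library.

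The old KO mice differed most from each other. Their Lars2 levels stood in a ratio of 8.39, against 1.15 for the 2 young KD mice, 1.20 for the 2 young KO mice and 1.47 for the 2 sick KD mice. Described as log2 fold changes, Lars2 was 2.55 higher in young KO than in young KD marrow, 1.93 higher in old KO than in sick KD, 1.61 higher in sick than in young KD and 0.99 higher in old than in young KO. Without the mouse old KO 2, the value for old KO against sick KD was -0.29 and that for old against young KO was -1.23, so the direction of both rested on that mouse. The ratio of highest to lowest library was then 6.87.

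Among 15102 genes that passed the filter in all 8 mice, 66 others had an SD of log2(CPM + 1) over libraries at least as large as the 1.41 of Lars2, and 339 others had a ratio of highest to lowest library at least as large. The median SD over these genes was 0.183 and the median ratio was 1.61. Each of the 8 other synthetases had a ratio below that median, between 1.20 and 1.51, and only Fars2, with 0.223, had an SD above the median.

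**Figure D2:**
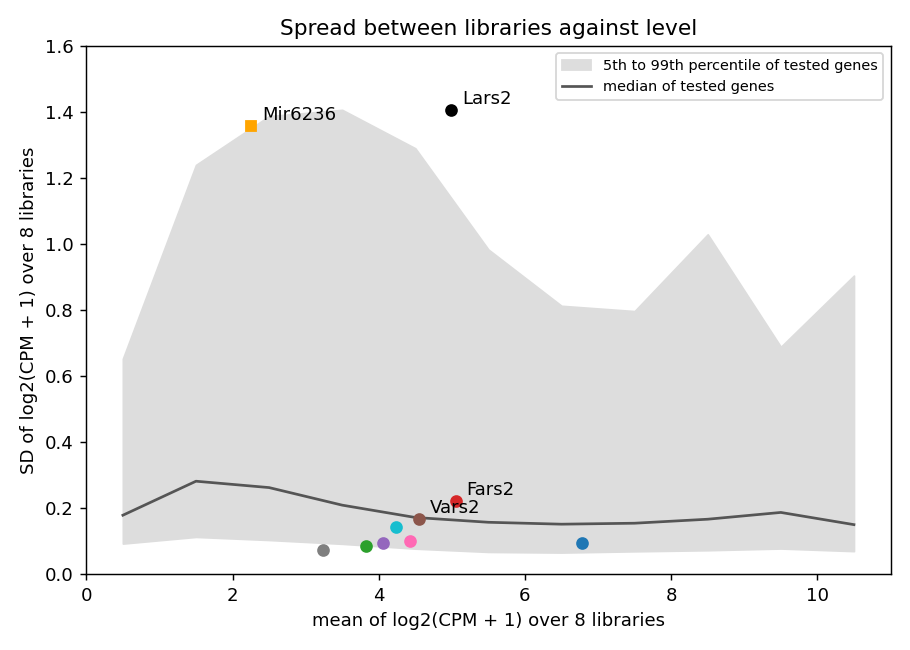
SD of log2(CPM + 1) over the 8 libraries against mean log2(CPM + 1); the grey band covers the 5th to the 99th percentile of tested genes at each level and the line their median. Lars2 lies above the band at 1.41, Mir6236 lies at its upper edge at 1.36, and the 8 other synthetases (unlabelled dots, with Fars2 and Vars2 named) lie at 0.223 or below.

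The family is described first by the enzymes of the same structural class as Lars2, class I. Iars2, which charges isoleucine tRNA, was at 105 and 107 CPM in young KD, 112 and 107 CPM in young KO, 119.7 and 95.2 CPM in sick KD, and 110.5 and 113 CPM in old KO marrow. Its extremes were the 2 sick KD mice, between which all 6 other libraries lay. Vars2, the valine enzyme, was at 23.4 and 21.8 CPM in young KD, 23.5 and 22.6 CPM in young KO, 16.9 and 23.3 CPM in sick KD, and 25.4 and 23.2 CPM in old KO marrow. Here too the widest gap within a group was between the sick KD mice, in a ratio of 1.38. Yars2, which charges tyrosine tRNA, ranged from 19.2 CPM in a young KD library to 24.3 CPM in a sick KD library. Ears2, the glutamate enzyme, ranged from 7.57 CPM in young KD to 9.06 CPM in old KO marrow, and its 2 young KD mice differed by a ratio of 1.15.

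The class II enzymes charge asparagine, serine, alanine and phenylalanine tRNA. Nars2, the asparagine enzyme, was at 12.1 and 11.9 CPM in young KD, 12.8 and 14.2 CPM in young KO, 13.8 and 13.8 CPM in sick KD, and 13.3 and 13.5 CPM in old KO marrow. Both young KD libraries were below the other 6, as they were for Lars2, but the library with the highest Lars2 level lay in the middle of the range of Nars2. Sars2, the serine enzyme, ranged from 14.7 to 18.1 CPM and Aars2, the alanine enzyme, from 15.8 to 21.3 CPM, each with its highest value in the mouse sick KD 2. Fars2, which charges phenylalanine tRNA, was at 30.4 and 31.2 CPM in young KD, 29.5 and 28.3 CPM in young KO, 40.1 and 42.7 CPM in sick KD, and 28.5 and 30.1 CPM in old KO marrow. Both sick KD libraries were above the other 6, which lay within 28.3 to 31.2 CPM.

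The summed level of the 8 genes was nearly level across the mice, from 229 to 250 CPM. The level of Lars2 relative to that sum ran from 0.0368 in a young KD mouse to 0.784 in the mouse old KO 2. Levels between genes depend on the length they are divided by: the median of Lars2 was 2.50 CPM per kilobase of all annotated exons, between Nars2 (1.92) and Aars2 (3.60), but 7.11 CPM per kilobase of its transcript Lars2-201, between Vars2 (5.25) and Sars2 (8.20). On the scale of all exons, its lowest library, at 0.762 CPM per kilobase, was below the lowest library of each of the 8 others, and its highest, at 17.2, was above the highest library of each of them, the nearest being Iars2 at 13.5 CPM per kilobase. On the scale of the transcript its lowest library, at 2.17, and its highest, at 48.9, were outside the range of the others too. Iars2 had the highest median on both scales (12.3 and 19.9 CPM per kilobase), whereas the lowest was that of Ears2 by exons (1.69) and of Nars2 by transcript (3.55).

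None of the 8 genes passed the test between young KO and young KD marrow (quasi-likelihood fit in edgeR, p-values adjusted by Benjamini-Hochberg over all genes tested). Their log2 fold changes lay between -0.10 for Fars2 and 0.16 for Nars2, with a median of 0.03 against -0.01 over all genes, and none had an unadjusted p under 0.05. Of all genes tested in this comparison, 0.0404% passed the threshold of 0.05, so 0 of 8 was near the background. The SEs of the 8 log2 fold changes were between 0.07 for Iars2 and 0.15 for Ears2.

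Fars2 was lower in old KO than in sick KD marrow, by a log2 fold change of -0.52 (SE 0.12, adjusted p = 0.0275 by edgeR), and higher in sick than in young KD marrow, by 0.44 (SE 0.11, adjusted p = 0.0371 by edgeR). It was the only call among the 8 genes in each of these comparisons, where 18.1% and 20.9% of all genes tested passed (8.22% lower in the first and 9.45% higher in the second), so that 1 of 8 was near the background. Both comparisons contain the same sick KD mice and are not independent. The median log2 fold change of the 8 genes was -0.04 in the first and 0.14 in the second, against -0.00 and 0.01 over all genes. The remaining 7 genes lay between -0.16 (Yars2) and 0.26 (Vars2) in old KO against sick KD, and between -0.16 (Vars2) and 0.22 (Yars2) in sick against young KD, with SEs up to 0.19. With a mouse left out, 1 arm holds a single mouse and fewer samples enter. The call of Fars2 was then lost in every fit of old KO against sick KD and in most fits of sick against young KD. Over all these fits its log2 fold change was -0.56 to -0.47 in old KO against sick KD. It was 0.39 to 0.48 in sick against young KD.

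**Figure D3:**
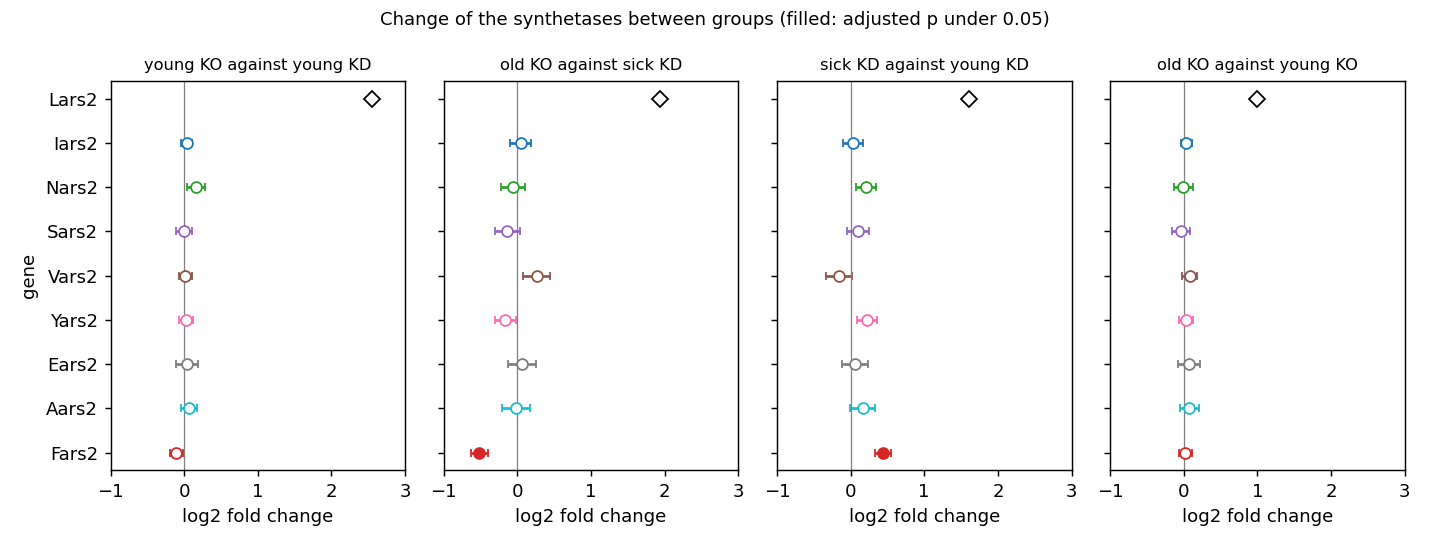
Log2 fold change of each synthetase gene in the 4 comparisons, with bars of 1 SE for the tested genes; filled points passed an adjusted p of 0.05. Lars2 (open diamonds, not tested) lies between 0.99 and 2.55, and only Fars2 is filled, at -0.52 and 0.44.

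None of the 8 genes passed the test between old and young KO marrow, and their log2 fold changes lay between -0.03 (Sars2) and 0.08 (Vars2), with a median of 0.03 against -0.00 over all genes. In this comparison 0.929% of all genes passed the threshold. The difference between the KO and KD genotypes in old or sick marrow was also set against that in young marrow, in a fit of all 8 mice, where 7.43% of all genes passed and none of the 8 did by edgeR. Fars2 came nearest, with -0.42 (SE 0.13, adjusted p = 0.0782 by edgeR), and was the only gene of the family with an unadjusted p under 0.05. In neither comparison did an alternative setting call any of the 8.

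The calls of Fars2 fell in libraries that also differed in cell makeup and in RNA classes. Erythroid markers (8 of 8 in the files, none at 0) summed to 568 to 777 CPM in sick KD against 1266 to 2830 CPM in young KD and 1945 to 3170 CPM in old KO marrow. All 8 were called in both comparisons, where 18.1% (old KO against sick KD) and 20.9% (sick against young KD) of all genes were called. The largest changes in old KO against sick KD were Klf1 at 2.44, Alas2 at 2.41 and Slc4a1 at 2.29 on the log2 scale. B-cell markers (8 of 8, none at 0) summed to 35.5 to 86.3 CPM in sick KD, 719 to 945 CPM in young KD and 120 to 193 CPM in old KO marrow. Granulocyte and monocyte markers summed to 27101 to 28725 CPM in sick KD, 19337 to 21249 CPM in young KD and 20396 to 23466 CPM in old KO marrow. T- and NK-cell markers (8 of 8, none at 0) summed to 13.8 to 17.1, 32.7 to 34.9 and 36.6 to 40.8 CPM, and stromal and endothelial markers (7 of 7, Bglap at 0 in at least 1 library) to 108 to 118, 245 to 305 and 204 to 205 CPM in the same order. The sums mix unlike markers. In sick KD 1, Lyz2 was at 16995 CPM and Pecam1 at 83.4 CPM, the largest parts of the granulocyte-monocyte and stromal sums. In sick against young KD, Cd3e (0.19), Cd3d (-0.24), Cd8a (-0.36) and Trac (-0.61) were uncalled, and Cd4, Cd28, Ncr1 and Klrb1c were called, all lower. Of the granulocyte and monocyte markers only Elane, Prtn3, Ctsg and Ly6c2 were called there, all higher. In old KO against sick KD only Elane (-0.69), S100a8 (-3.76) and S100a9 (-3.75) of these markers were called, all lower. Megakaryocyte markers (6 of 6, none at 0) overlapped between the groups, and none of the 6 was called, against 18.1% and 20.9% of all genes. In bulk marrow, fewer cells of a type and less RNA per cell cannot be told apart, and the part of cell makeup in the values of Fars2 was not tested.

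The same question was put to the other genes of mitochondrial and cytosolic tRNA charging. The 10 remaining mitochondrial or dual-located synthetases had ratios of highest to lowest library between 1.12 (Wars2) and 1.76 (Pars2), and 0 of 10 were called in every comparison by edgeR. The share of all genes called ran from 0.0404% in young KO against young KD to 20.9% in sick against young KD. An unadjusted p under 0.05 was found for 1 of them in old KO against sick KD and for 2 in sick against young KD, and with all 8 mice in the fit 1 was called in the latter. The 18 cytosolic synthetases, which charge the tRNAs of the main translation machinery, had ratios between 1.13 (Iars) and 1.63 (Vars). Farsb, the beta subunit of the cytosolic phenylalanine enzyme, was the only one called. Its log2 fold change was -0.52 in old KO against sick KD (adjusted p = 0.0272 by edgeR), 0.46 in sick against young KD (adjusted p = 0.0278) and -0.58 for the interaction (adjusted p = 0.0384). A call for 1 of 18 is below the 18.1%, 20.9% and 7.43% of all genes called in these fits.

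Of 20 genes that process or modify mitochondrial tRNA, 3 were lower in old KO than in sick KD marrow, where 18.1% of all genes were called and 8.22% were lower, so 3 of 20 is near the background. These were Nsun3, a methyltransferase of the mitochondrial methionine tRNA, with a log2 fold change of -0.81, Gatc, a subunit of the enzyme that makes glutaminyl-tRNA in mitochondria, with -0.52, and Hsd17b10, a component of mitochondrial RNase P, with -0.42. Gatc and Hsd17b10 were also higher in sick than in young KD marrow, by 0.63 and 0.48, which is 2 of 20 genes against 20.9% of all genes called and 9.45% called higher. Of 13 mitochondrial translation factors, Mrrf, the ribosome recycling factor, was called, higher in sick than in young KD by 0.58, and 1 of 13 is likewise below the 20.9% of all genes. None of these 3 lists held a gene as variable as Lars2, the widest ratio being 2.46 for Cdk5rap1. With a mouse left out, fewer tRNA processing genes were called in every fit of old KO against sick KD. Elsewhere the numbers called among cytosolic synthetases, tRNA processing genes and translation factors fell in some fits and rose in others. Those fits leave 1 mouse in an arm and hold fewer samples, so lost calls need not trace to the mouse left out.

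The tRNAs that Lars2 charges were barely counted. The libraries were made with a poly(A) kit, but 10 rows of RNAs that lack a poly(A) tail still held 1.32% to 4.27% of counts. The reason for the low tRNA counts was not tested. The leucine tRNA rows held 0 to 3 counts (mt-Tl1) and 0 counts (mt-Tl2) in every library, too few to compare groups. Of the 13 mitochondrial mRNAs, 7 were tested. The untested rows held at most 12 counts in a library (mt-Co3), against 70414 to 168146 for mt-Co1, and why they were so low was not tested. Of the 7 tested, 6 were lower in old KO than in sick KD marrow. They were led by mt-Nd5 (-2.25), mt-Nd2 (-1.72) and mt-Nd4 (-1.49), subunits of respiratory complex I. Of all genes, 18.1% were called in this comparison and 8.22% were lower. Also 6 were higher in sick than in young KD marrow (3 without the mouse young KD 1), where 20.9% of all genes were called and 9.45% were higher, and none was called between young KO and young KD, where Lars2 was 2.55 higher on the log2 scale. Likewise all 10 rows of RNAs that lack a poly(A) tail, among them Rny1, Rn7s2 and Rmrp, were called in the same 2 comparisons in the same directions as the mitochondrial mRNAs, and their part in the latter was not tested.

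Genes of the integrated stress response, which acts through Atf4 when charging or translation is disturbed, were called in 5 of 16 cases in old KO against sick KD, each higher in old KO, where 18.1% of all genes were called. The largest changes were those of Ppp1r15a (1.41), Ddit3 (0.997) and Atf5 (0.78), whose products are a phosphatase regulator and a pair of transcription factors. In sick against young KD, Ddit3 (-1.08) and Atf4 (-0.68) were lower, and 2 of 16 is below the 20.9% of all genes called. No gene of this list was called in young KO against young KD or in old against young KO, where 0.0404% and 0.929% of all genes were called. Its median log2 fold changes there were 0.05 and 0.18. With a mouse left out, fewer genes of this list were called in every fit of old KO against sick KD. In sick against young KD the number fell in some fits and rose in others. Those fits leave 1 mouse in an arm and hold fewer samples.

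No synthetase followed Lars2 closely over the 8 libraries. On the log2(CPM + 1) scale the Pearson r with Lars2 was 0.60 for Nars2, 0.40 for Ears2, 0.25 for Yars2, 0.22 for Iars2, 0.17 for Aars2, 0.15 for Vars2, 0.14 for Sars2 and -0.14 for Fars2. The points share library preparation and depth, and 1 point, old KO 2, lies far from the others, so these are descriptions over 8 mice. As deviations from the mean of each group, r was 0.08 for Nars2, -0.06 for Ears2 and 0.72 for Fars2. With 2 mice a group these deviations are mirrored pairs, and the wide gap between the old KO mice weighs most. The row mt-Atp8, with 1 count in old KO 2 and none elsewhere, reached 0.98 by this measure. The median of the 8 was 0.20, against 0.01 over all 15101 genes compared, and in the 10 further mitochondrial synthetases the highest r was 0.58, for Kars.

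**Figure D4:**
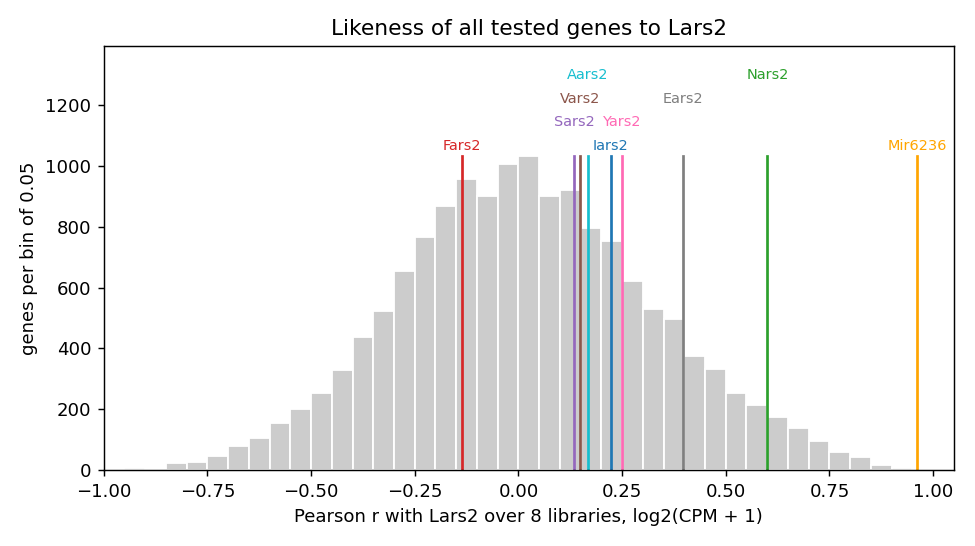
Number of genes per bin of 0.05 in Pearson r with Lars2 over the 8 libraries, with vertical lines at the 8 other synthetases and at Mir6236. The synthetases lie between -0.14 (Fars2) and 0.60 (Nars2, above 96.4% of all genes), and Mir6236 lies at 0.96.

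The gene most like Lars2 was Mir6236, a microRNA gene also on the plus strand of chromosome 9 (chr9:110281287-110281409) but 13.1 Mb away. Its annotated mature sequence, printed as the identity of this row with the seed (bases 2 to 8) in capitals, is taken from RefSeq on GRCm38.p6 (chr9:110281353-110281371, plus strand):
mmu-miR-6236: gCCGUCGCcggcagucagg
Neither strand of these 19 bases occurred in any of the 9 annotated transcripts of Lars2. They are only part of the 123 bases over which the row is counted, so this search does not cover the whole row. Counts on this row cover the whole locus in libraries made with a poly(A) kit, and are not a measure of the mature microRNA.

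Mir6236 was at 1.02 and 0.903 CPM in young KD, 7.79 and 6.73 CPM in young KO, 0.998 and 3.42 CPM in sick KD, and 3.06 and 27.8 CPM in old KO marrow, from 41, 30, 339, 221, 25, 97, 87 and 1081 counts. The row was picked by its r with Lars2 over these same libraries, which favours a shared highest library. That library was again old KO 2, and both young KO libraries were above both young KD and both sick KD libraries. Its ratio of highest to lowest library was 30.8, and its 2 old KO mice differed by a ratio of 9.09. Pearson's r with Lars2 was 0.96 and Spearman's rho 0.93. The r of deviations from group means was 0.97, a value that rests mostly on the gap between the old KO mice. It was 0.91 for the levels over the 6 libraries left without old KO 2 and young KD 1, the 2 farthest from the median of Lars2.

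The next 9 genes by r with Lars2 moved over a far smaller range. They were Ralb, a small GTPase (0.96), Snd1, a nuclease and coactivator (0.96), Lap3, an aminopeptidase (0.96), Fkbp2, a prolyl isomerase of the endoplasmic reticulum (0.95), Hpse, heparanase (0.92), Tmem86a (0.92), Mfsd10 (0.91), Ddost, a subunit of the oligosaccharyltransferase (0.91), and Surf4, a cargo receptor (0.91). Their ratios of highest to lowest library lay between 1.19 for Lap3 and 1.70 for Tmem86a, against 22.5 for Lars2. Of the 15101 genes, 10 had an r above 0.9 and 7 an r of -0.9 or below. All 10 were highest in old KO 2, which their selection by r with Lars2 favours, because Lars2 was highest there. The closest of the 9, Ralb, was at 117, 116, 127, 129, 118, 123, 125 and 140.8 CPM in the mice of young KD, young KO, sick KD, then old KO marrow.

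Gene rows that commonly collect reads of ribosomal RNA were read beside Lars2. Gm42418 was at 1435 CPM in its lowest library, a young KD mouse, and at 3857 CPM in its highest, old KO 2, a ratio of 2.69. Its r with Lars2 was 0.76, and 0.35 without the 2 farthest libraries. The r of deviations from group means was 0.96, which again rests mostly on the gap between the old KO mice. Gm15564, the gene that shares 72 bases with Lars2, held 7 and 3 counts in young KD, 12 and 16 in young KO, 0 and 7 in sick KD, and 9 and 45 in old KO marrow, an r of 0.84 on counts too low to rank most libraries. By contrast Gm26917, next to Gm42418 on chromosome 17, ranged only from 2536 to 4008 CPM with an r of 0.04, and Gm26870 from 1.09 to 5.99 CPM with an r of 0.08. The mitochondrial ribosomal RNA genes mt-Rnr1 (r = 0.06) and mt-Rnr2 (r = -0.07) were highest in the sick KD libraries, and Gm23935 was listed at 0 counts throughout. Whether reads of ribosomal RNA form part of the Lars2 count was not tested, because counts per gene do not show where in the gene the reads lie.

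**Figure D5:**
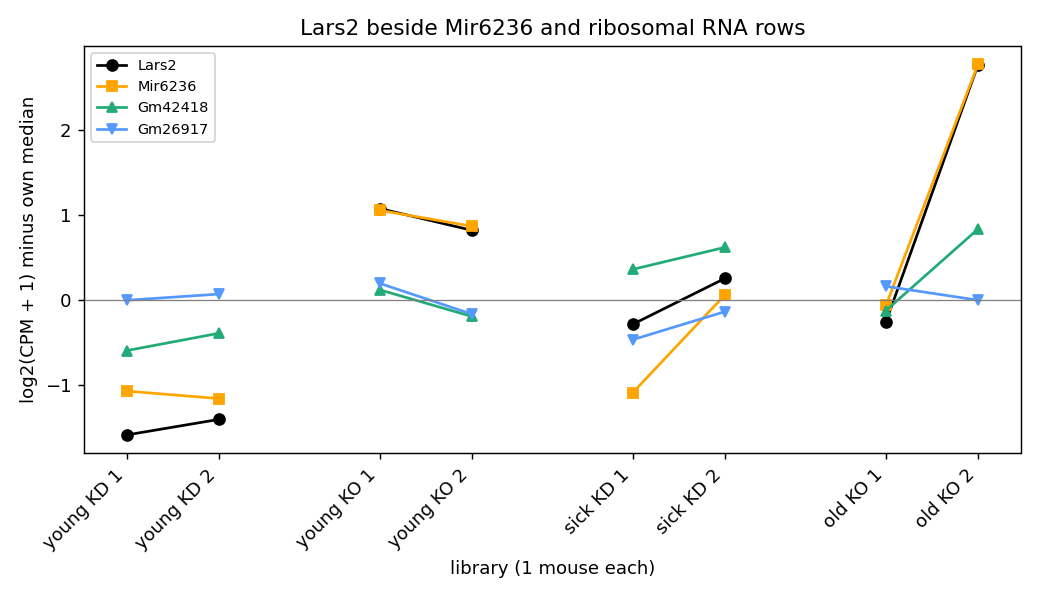
Log2(CPM + 1) minus the gene's own median over the 8 libraries for Lars2, Mir6236 and the ribosomal RNA rows Gm42418 and Gm26917, with a line joining the 2 mice of a group. Lars2 (2.76 above its median in old KO 2) and Mir6236 coincide most closely in young KO and old KO marrow, Gm42418 rises in old KO 2 and is also high in both sick KD mice, and Gm26917 stays near its median.

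The 2 nearest neighbours of Lars2 on chromosome 9 varied much less than Lars2. Limd1, which begins 16040 bases beyond the end of Lars2, ranged from 202 to 278 CPM, a ratio of 1.38, with an r of 0.08. Sacm1l, the next gene, had a ratio of 1.34 and an r of -0.05. Of the 15 neighbours that passed the filter, Ccr9, a chemokine receptor, had the widest ratio, 25.9, with an r of -0.11, and the highest r was 0.77, for Zdhhc3, whose ratio was 1.10. In young KO against young KD 0 of the 15 were called (0.0404% of all genes). In old KO against sick KD 3 of 14 tested were called (18.1% of all genes), Slc6a20a at 2.43, Ccr1 at -1.65 and Fyco1 at -1.05 on the log2 scale. In sick against young KD 4 of 15 were called (20.9% of all genes), Ccr9 at -2.91, Slc6a20a at -1.92, Ccr1 at 1.40 and Fyco1 at 1.001, and in old against young KO 1 of 15 (0.929% of all genes), Cxcr6 at 2.36. Both genes nearest to Lars2 were uncalled in each of the 4 comparisons. The mouse Gfi1 gene itself, at 5.43 to 29.9 CPM, had an r with Lars2 of 0.86 and of 0.62 without the 2 farthest libraries, and it too was highest in old KO 2.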

How the data were processed

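Total bone marrow RNA of 8 mice was sequenced by the authors with a stranded poly(A) kit (TruSeq Stranded mRNA). Per the labels and methods, reads were aligned to mm10 with TopHat2 2.0.10, processed with SAMtools and assigned to Ensembl genes with HTSeq (release and strand setting not given in the sources used here). The deposited values are raw counts of uniquely aligned reads per gene; the 5 tally rows were left out of library sizes and tests. Symbols, positions and transcripts came from GENCODE M21 (GRCm38), and 40254 of 41214 identifiers had a symbol.

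Levels are CPM with edgeR 4.0.16 TMM factors over the 8 libraries; log2 values use a pseudocount of 1. Each comparison was fitted on its own 4 mice (R 4.3.3, edgeR quasi-likelihood, filterByExpr by group), with the interaction in all 8 mice, Benjamini-Hochberg adjustment over all tested genes and a threshold of 0.05. DESeq2 1.42.0, RLE factors, a looser filter, removal of ribosomal, non-poly(A) and mitochondrial rows, all mice in a common fit and leaving out each mouse were the alternatives. On simulated counts, 100% of 200 genes changed 4-fold were recovered in the fit of young KO against young KD (14880 genes), with 10 false calls. Changes as small as those of the other synthetases were not simulated, so the power to find them was not measured. Shared stretches were found with BLAST 2.17.0. No 2 libraries of a group agreed within sampling noise (chi-square per degree of freedom 21.8 to 35.9). The labels give each library its own mouse, and p-values measure the spread between 2 mice a group.

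Members and lists were chosen with earlier results of these data known. Named were every member, the 10 genes with the highest r with Lars2, all ribosomal RNA and leucine tRNA rows, and up to 3 called genes with the largest change of each other list; marker lists are mostly given by counts, and single genes at the ends of a range were named after their values were seen.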

Additional observations from a re-analysis of the deposited data

How the results depend on the processing

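Across 384 values of the 8 other synthetases under alternative settings, 343 kept direction and side of the threshold, 7 no longer passed, 34 changed sign and none was newly called. The 34 were uncalled on both sides, the largest at 0.21 in size, 32 of them with a mouse left out; the other 2 were Sars2 in young KO against young KD, at 0.00025 with the looser filter and 0.0038 with all 8 mice in the fit. With a mouse left out, the log2 fold changes that crossed 0 were, in young KO against young KD, -0.070 to 0.064 for Sars2, -0.030 to 0.066 for Vars2, -0.00036 to 0.053 for Yars2, -0.058 to 0.16 for Ears2 and -0.031 to 0.16 for Aars2. In old KO against sick KD they were -0.11 to 0.22 for Iars2, -0.27 to 0.0042 for Sars2 and -0.21 to 0.21 for Aars2. In sick KD against young KD they were -0.15 to 0.19 for Iars2, -0.037 to 0.24 for Sars2, -0.41 to 0.050 for Vars2, -0.056 to 0.14 for Ears2 and -0.065 to 0.36 for Aars2. In old KO against young KO they were -0.10 to 0.078 for Nars2, -0.10 to 0.030 for Sars2, -0.029 to 0.18 for Aars2 and -0.0096 to 0.054 for Fars2. For the interaction they were -0.17 to 0.18 for Iars2, -0.092 to 0.12 for Ears2 and -0.29 to 0.13 for Aars2. The 7 were all Fars2 with a mouse left out: the number of synthetases called was 0 to 0 in old KO against sick KD over the 4 mice, and 0 to 1 in sick against young KD. With 1 mouse in an arm, the lone mouse is assumed to vary like the other group, so fewer samples enter each fit. Under DESeq2, RLE factors, the looser filter, removal of technical rows and the fit of all 8 mice, both Fars2 calls held. The ratio of highest to lowest Lars2 library was 6.87 to 22.6 with a mouse left out and 21.8 to 22.5 under the other settings, and the median r of the family with Lars2 was 0.06 to 0.33. Scalings moved the median of all genes by at most 0.03 on the log2 scale. With all 8 mice in the fit, 3 cytosolic synthetases, 6 tRNA processing genes and 2 translation factors were called in old KO against sick KD; of 16 integrated stress genes, 4 were called in sick against young KD. With the looser filter, 5 mitochondrial mRNAs and 2 stress genes were called in old against young KO. No paired analysis was possible because the labels give no replicate numbers shared between groups. Division by transcript length, in place of exon length, was added after the data were seen. With 2 mice a group, outlying mice were not tested for.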
